A study of Mus musculus with 5 samples.

Results

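The 10 macrophage identity genes Csf1r, Cx3cr1, Itgam, Cd68, Mrc1, Cd163, Mertk, Cd14, Fcgr3 and Lyz2 were read by symbol from a table of 24062 genes, and all 10 were listed. RNA of mouse mitral valve leaflets had been sequenced in 5 libraries, 2 titled wild type (WT) and 3 titled knockout (KO) for Ift88, a gene needed to build cilia. All 5 carry NfatC1Cre(+), a recombinase driven in endocardial cells. The genotype field gives Ift88f/f to the libraries titled WT and Ift88+/+ to those titled KO, the reverse of the titles, which define the groups here. The labels used here state no age, sex or pooling of animals. Nothing states that each library is a different animal. The p-values therefore describe the spread of these 5 samples, and that spread may be technical.

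Macrophages are the main resident phagocytes of heart valves, where they clear dead cells and debris and take part in matrix turnover. Their identity rests on signalling through the CSF1 receptor and on lineage factors such as PU.1, encoded by Spi1. Macrophages are commonly recognised by a group of surface receptors for chemokines, adhesion ligands, antibodies, bacterial lipid and dying cells, and by lysosomal proteins. Several of these genes are also used by other cells, such as Fcgr3 by mast cells, Cd14 and Lyz2 by neutrophils, and Mrc1 by lymphatic-type endothelium.

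Sequence sets how far a count can be assigned to a member. For 5 members no 50-base window of the longest transcript occurred in a transcript of another gene (GENCODE M21), namely Csf1r, Cd68, Mrc1, Cd14 and Mertk. For Lyz2, 15.4% of windows also occurred in its neighbour Lyz1, and for Fcgr3 12.8% occurred in Fcgr2b. Of the Itgam windows, 72.4% were shared with Gm49368, an overlapping gene model that has no row in the table. Cd163 and Cx3cr1 shared 0.091% and 0.27%. Nothing in the sources says how reads from shared windows were counted, so Lyz2, Fcgr3 and Itgam are uncertain to that extent.

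The coding sequences of Lyz2 and Lyz1 are shown where they differ most, as an example of a stretch where their reads can be told apart. Other parts of the transcript can also tell them apart, since only 15.4% of the 50-base windows of Lyz2 occurred in Lyz1. The coding sequences differ at 22 of 444 positions (95% identity), and the longest identical run is 118 bases. The stretch covers coding positions 43 to 132, counted from 1 at the start codon, on the minus strand of GRCm38. Capitals mark the 13 bases that differ.
Lyz2, chr10:117282111-117282200: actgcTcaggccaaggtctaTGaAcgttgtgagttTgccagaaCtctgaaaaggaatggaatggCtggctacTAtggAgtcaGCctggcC
Lyz1, chr10:117292707-117292796: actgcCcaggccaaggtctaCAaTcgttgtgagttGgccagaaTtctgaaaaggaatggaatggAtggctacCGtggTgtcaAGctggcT

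The promoters of Itgam, Cd68 and Lyz2 are shown because Itgam and Cd68 were highest in the same 2 KO libraries, while Lyz2 was lower in every KO library. Each runs from 250 bases before the start site, in the gene's 5′ to 3′ sense (RefSeq, GRCm38.p6). Capitals mark GAGGAA or AGGAAGT on either strand, short forms of the purine-rich element that PU.1 binds. The forms share the letters AGGAA and can overlap.
Itgam, chr7:128062390-128062689, plus strand: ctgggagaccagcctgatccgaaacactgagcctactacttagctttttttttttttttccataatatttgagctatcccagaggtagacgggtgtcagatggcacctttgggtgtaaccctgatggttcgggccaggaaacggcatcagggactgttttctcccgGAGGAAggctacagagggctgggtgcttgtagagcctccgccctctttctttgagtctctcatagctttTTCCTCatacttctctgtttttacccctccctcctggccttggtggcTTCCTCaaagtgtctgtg
Cd68, chr11:69666121-69666420, minus strand: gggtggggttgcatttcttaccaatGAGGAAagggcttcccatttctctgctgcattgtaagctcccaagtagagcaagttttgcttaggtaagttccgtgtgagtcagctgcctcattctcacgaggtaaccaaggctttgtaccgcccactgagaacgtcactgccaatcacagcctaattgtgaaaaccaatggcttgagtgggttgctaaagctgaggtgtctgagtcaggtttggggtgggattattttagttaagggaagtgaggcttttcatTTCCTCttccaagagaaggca
Lyz2, chr10:117282223-117282522, minus strand: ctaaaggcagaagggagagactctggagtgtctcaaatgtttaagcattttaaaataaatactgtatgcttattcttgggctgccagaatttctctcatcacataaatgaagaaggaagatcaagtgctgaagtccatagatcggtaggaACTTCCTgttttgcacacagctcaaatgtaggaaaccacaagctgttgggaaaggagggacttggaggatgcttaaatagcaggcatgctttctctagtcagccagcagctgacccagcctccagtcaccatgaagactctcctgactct

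Promoters were matched for 8 of the 10 members, with 9 start sites among them. GAGGAA occurred in 4 of the 8 genes and AGGAAGT in 2. By window these were 5 and 2 of 9, where 2 of the 5 are overlapping Fcgr3 windows that hold the same match. Of all 32851 promoter windows of that length, 28.3% and 9.35% held them. Itgam held GAGGAA at 3 places, Cd68 at 2 and Mrc1 at 3, and Lyz2 and Mrc1 each held AGGAAGT once. The Lyz1 promoter has AGGAAGT at the same offset, 100 bases before the start site. These matches are descriptions of letters and not of binding.

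Libraries had 23361414 to 53789026 counted reads, and the title of WT replicate 1 shares a code with those of KO replicates 1 and 2. Levels below are in CPM, which are counts scaled to library size, here with TMM, a factor that corrects for library composition. The libraries differed in the tissue they held. The summed level of 10 cardiomyocyte markers was 106 CPM in WT replicate 2 and 26070 to 49630 in the other 4 libraries. WT replicate 1 had the lowest sums of valve endothelial markers (288 CPM, against 1457 to 2458 in the others) and of interstitial markers (2782, against 7783 to 11530). The pan-leukocyte sum of 7 genes was 66.2 CPM in WT replicate 1, 153.9 in WT replicate 2 and 95.6 to 153.9 in KO. Ift88 stood at 7.54 and 19.8 CPM for WT, against 3.0, 3.92 and 0.409 for KO, which goes with the titles. It was lower in every KO library, as were 11.1% of all genes tested. The difference did not pass (log2 fold change -2.48, SE 1.125, edgeR adjusted p = 0.81). With bulk tissue, fewer macrophages and less RNA per macrophage cannot be told apart, and the part of tissue makeup in any difference below was not tested.

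**Figure D1:**
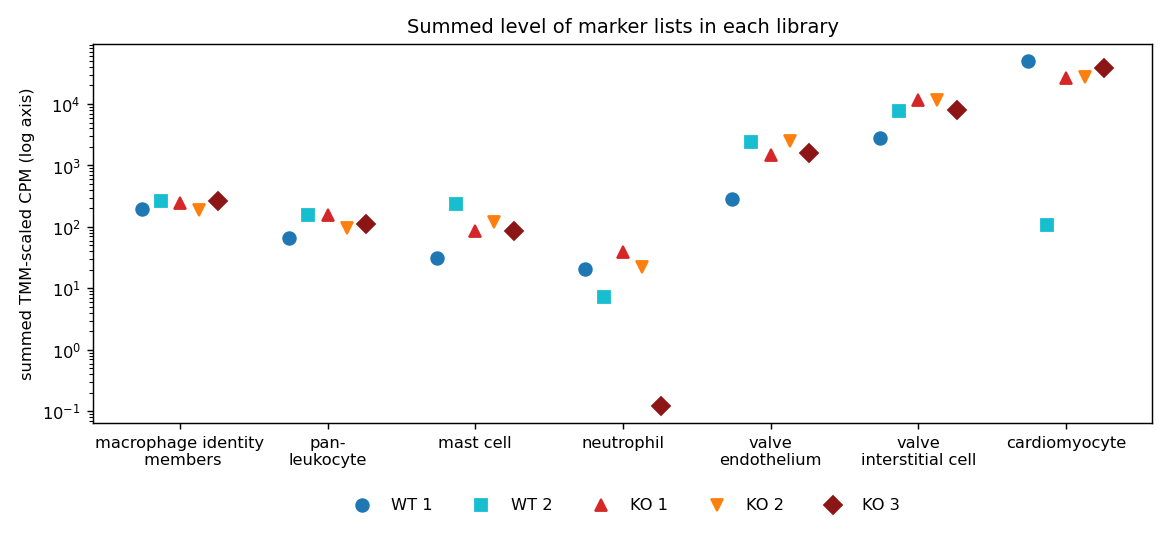
Summed TMM-scaled CPM (log axis) of the 10 macrophage identity genes and of 6 marker lists in each of the 5 libraries, 1 symbol per library. The macrophage sums lie between 191.5 and 268.7 CPM, while WT replicate 2 stands apart for cardiomyocyte markers (106) and KO replicate 3 for neutrophil markers (0.123).

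The label fits the data in that macrophage transcripts were present in every library, with 8 of the 10 members detected in each WT library and 10, 9 and 9 in KO replicates 1, 2 and 3. Itgam and Cd163 were the members with libraries at 0. Other macrophage genes, among them C1qa, C1qb, C1qc and Ctss, also had reads in all 5 libraries. The pan-leukocyte marker Ptprc, which encodes CD45, had 1 read in WT replicate 1 and none in KO replicate 3, the library where Csf1r was highest, against 3.54 CPM in WT replicate 2 and 5.72 and 3.18 in KO replicates 1 and 2.

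In the comparison of KO with WT, 9 members had enough reads to be tested, and the levels of 7 leaned higher and of 2 lower in KO without any of them passing. Cd163 did not pass the filter on low counts. The edgeR quasi-likelihood test called 0 of the 9 at an adjusted p under 0.05, as it called 0 of 14244 genes (0.0%). At an unadjusted p under 0.05 there was 1 member, Itgam, and 832 genes in all (5.84%). In 2 of the 9, Itgam and Cx3cr1, the KO libraries were all higher than both WT libraries (13.5% of all genes), and in 1, Lyz2, all lower (11.1%). This count of 3 members rests on the libraries compared. It was 6 without WT replicate 1 or WT replicate 2, 5 without KO replicate 1 or KO replicate 2, and 4 without KO replicate 3. Among libraries sharing a title code it was 7. Fewer libraries also make overlap less likely, and the share of all genes was not computed for these subsets. The higher counts are therefore not a result about the members. The median log2 fold change of the 9 was 0.99, against -0.01 over all genes tested, and 7 of 9 were positive against 49.4% of all genes. Itgam, with no read in WT, passed the filter through its KO reads and could only come out positive. Without it 6 of 8 were positive and the median was 0.89. Without WT replicate 2 the median of the same 9 was 1.49, the value of Cd68. DESeq2 called Itgam alone of the members (219 genes in all, 1.6%). The authors' deposited table calls none of the members (1.43% of genes called), and its adjusted p-values for the 9 lie between 0.545 and 0.901.

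**Figure D2:**
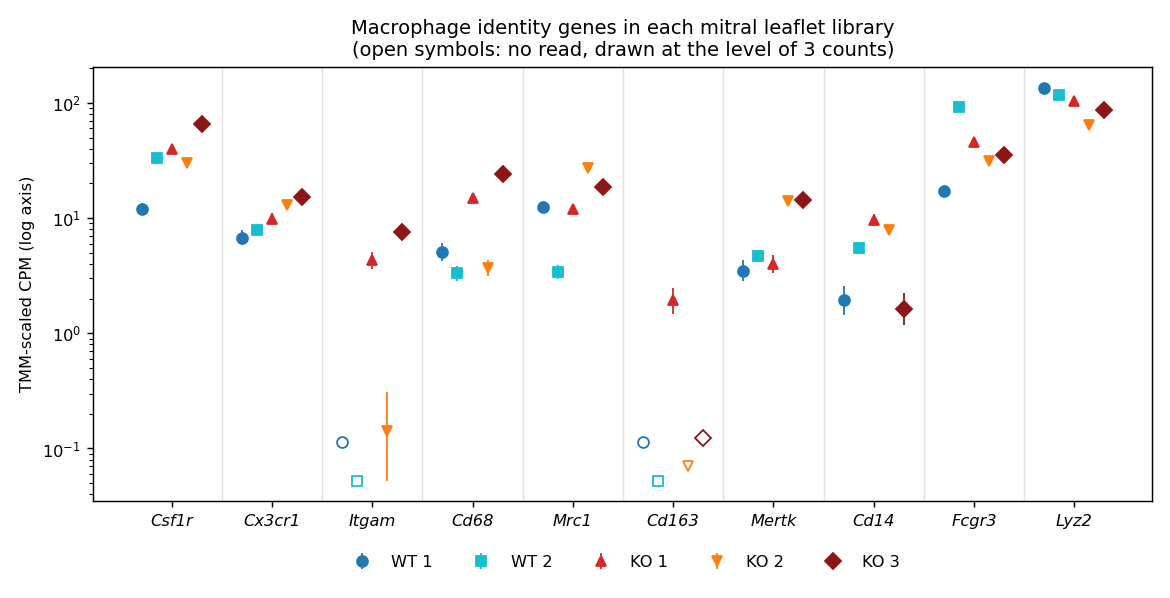
TMM-scaled CPM (log axis) of each macrophage identity gene in the 5 libraries, with 95% exact Poisson intervals that cover counting error only. Open symbols mark libraries with no read, drawn at the level of 3 counts. Only Cx3cr1 and Itgam have all 3 KO libraries above both WT libraries, and only Lyz2 has all 3 below.

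The growth factor and chemokine receptors come first. Csf1r encodes the receptor for CSF1 and IL-34, on which macrophage survival depends (chromosome 18, 61100598 to 61132149 in GRCm38). It had 12.1 and 33.2 CPM in WT replicates 1 and 2 and 39.5, 30.2 and 65.5 in KO replicates 1, 2 and 3. KO replicate 3 was highest and WT replicate 1 lowest, and the groups overlapped because KO replicate 2 lay just below WT replicate 2. WT and KO averaged 22.6 ± 14.9 (SD, n = 2) and 45.1 ± 18.3 (SD, n = 3). This log2 difference of 0.99 (SE 0.61) did not pass (edgeR adjusted p = 0.855). Leaving out WT replicate 1 gave 0.41 and leaving out WT replicate 2 gave 1.90, while leaving out KO replicate 3 gave 0.62.

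Cx3cr1 encodes the receptor for fractalkine, a chemokine held on endothelial surfaces (chromosome 9, 119901616 to 120069879). Its levels were 6.77 and 7.89 CPM for WT, against 9.92, 12.9 and 15.1 for KO. The WT replicates differed by a ratio of 1.16, and all KO libraries lay above both WT libraries. The means were 7.33 ± 0.787 (SD, n = 2) and 12.6 ± 2.6 (SD, n = 3), with a log2 fold change of 0.79 (SE 0.63, edgeR adjusted p = 0.892). Without each library in turn the value stayed between 0.64 and 0.90.

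Genes around these receptors were described from a list of 11 lineage factors and CSF1 receptor ligands. Of the 10 tested, 0 were called, 6 had a positive and 4 a negative fold change, and the median was 0.46. Spi1 stood at 1.07 and 6.53 CPM for WT, against 6.38, 4.53 and 5.65 for KO, with WT replicate 1 alone low. Irf8, a transcription factor of monocytes and dendritic cells, had 20.4 and 12.98 CPM for WT, against 9.32, 9.25 and 6.02 for KO. It was lower in every KO library, without passing (log2 fold change -1.03, SE 0.61, edgeR adjusted p = 0.847). Maf, a factor of resident macrophages, had 0.875 and 1.06 CPM for WT, against 1.74, 6.89 and 4.05 for KO (log2 fold change 2.12, SE 1.37, edgeR adjusted p = 0.863). The ligand Csf1 ranged from 3.81 CPM in WT replicate 1 to 39.8 in WT replicate 2, with KO between 13.7 and 17.4. Over the list genes passing the filter in each refit, the median ran from -0.25 without KO replicate 3 to 1.07 without WT replicate 2.

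Itgam encodes the alpha M chain of the integrin CD11b/CD18, an adhesion and complement receptor (chromosome 7, 128062640 to 128118491). It had no read in either WT library, which allows up to 0.114 CPM in WT replicate 1 and 0.052 in WT replicate 2 by the limit of 3 counts. In KO it had 136, 6 and 184 reads, or 4.3, 0.142 and 7.53 CPM. KO replicates 1 and 3 were high, and KO replicate 2 was close to the limit. Pooled over libraries, KO was at least 92.7-fold higher than the floor of 3 counts over both WT libraries. This bound was 53.7 without KO replicate 3, 159.7 without KO replicate 2 and 29.0 without WT replicate 2. The edgeR test gave an unadjusted p of 0.0223 and an adjusted p of 0.81, and DESeq2 gave an adjusted p of 0.0151 on the same counts. Itgam passed the filter through its KO reads alone, so its direction was fixed in advance and these p-values are no evidence for it. Of all genes with at least 100 reads in a library, 13.96% had none in at least 1 other. The 72.4% of windows shared with Gm49368 also limit how far these reads can be assigned to Itgam. Over the 10 alternatives in which Itgam was tested, the adjusted p lay between 0.0151 and 0.9999. Without KO replicate 1 or KO replicate 3 it failed the filter on low counts.

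Among adhesion partners, Itgb2, which encodes the beta chain that pairs with alpha M, had reads everywhere. Its levels were 2.93 and 13.97 CPM for WT, against 9.35, 1.01 and 5.24 for KO, so both WT libraries held the partner chain with no Itgam read. Of 9 genes tested in the adhesion and fractalkine list, Itgam and Cx3cr1 included, 0 were called and 4 were positive, with a median of -0.01. Tln1, which encodes talin, the protein that links integrins to actin in many cell types, had 31.7 and 76.0 CPM for WT, against 125.5, 176 and 226.6 for KO (log2 fold change 1.71, SE 0.52, edgeR adjusted p = 0.81). Fermt3, the kindlin of blood cells, had 10.4 and 47.1 CPM for WT, against 9.98 to 12.5 for KO, with WT replicate 2 alone high. The interstitial marker sum was also highest in the KO libraries beside Tln1 (8010 to 11530 CPM against 2782 and 7783), and its part in that difference was not tested. Over the list genes passing the filter in each refit, the median ran from -0.48 without KO replicate 1 to 0.83 without WT replicate 2. The median was 0.12 with each library's trend with transcript length removed (the length trend).

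The scavenger receptors follow. Cd68 encodes a lysosomal membrane protein of phagocytes (chromosome 11, 69664213 to 69666153). It had 5.1 and 3.31 CPM for WT, against 14.9, 3.7 and 24.4 for KO. KO replicates 1 and 3 were high, and KO replicate 2 lay between the WT libraries. The log2 fold change was 1.77 (SE 0.97, edgeR adjusted p = 0.828), 1.15 without KO replicate 3 and 0.87 among libraries sharing a title code. Among all tested genes with reads in every KO library, 10.3% had a ratio of highest to lowest KO library at least as large as that of Cd68.

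Cd68, Itgam and Csf1r had the same order of the KO libraries, and so had Emr1, which was named after its values were seen. The other tested members had other orders. Among further macrophage genes, C1qa and Ctss shared this order, and C1qb and C1qc did not. How many of all genes have it was not counted. Emr1, the older symbol of Adgre1, encodes F4/80, the classical surface marker of mouse macrophages. It had 0.533 and 3.9 CPM for WT, against 18.4, 1.23 and 24.9 for KO, so KO replicates 1 and 3 were again high and KO replicate 2 low. Its log2 fold change was 2.73 (SE 1.52, edgeR adjusted p = 0.831). Emr1 is 1 of the 15 broader macrophage genes outside the members, of which 4 were positive and 11 negative (median -0.29). Of 13 lysosome genes tested, Cd68 included, 0 were called, 7 were positive, and the median was 0.06, running from -0.28 without WT replicate 1 to 0.50 without WT replicate 2. Psap, which encodes prosaposin, had 222 and 174 CPM for WT, against 442, 379 and 313 for KO (log2 fold change 0.93, SE 0.34, edgeR adjusted p = 0.81). Lamp2, a membrane protein of lysosomes, had 573 CPM in WT replicate 1 and 1141 in WT replicate 2, with KO between 521 and 654.

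Mrc1 encodes the mannose receptor CD206 of tissue macrophages (chromosome 2, 14229392 to 14332057). Its level was 12.4 and 3.4 CPM for WT, against 12.0, 27.1 and 18.6 for KO. KO replicates 2 and 3 lay above both WT libraries and KO replicate 1 just below WT replicate 1. The log2 fold change of 1.28 (SE 0.79, edgeR adjusted p = 0.855) became 2.46 on leaving out WT replicate 1 and 0.63 on leaving out WT replicate 2. It was 0.82 once the length trend was taken out. Lymphatic-type endothelium also carries this receptor. Beside Mrc1, the summed level of 6 markers of that endothelium was 77.5 and 212 CPM for WT, against 184 to 279 for KO, highest in KO replicate 2 as for Mrc1, with Ccl21a at 0 in all libraries. Lyve1 and Stab1, which macrophages also express, are among the 6. The other 4 summed to 44.4 and 121 CPM for WT, against 84.8, 131.9 and 105.8 for KO, so the groups overlapped. Their part in the Mrc1 values was not tested.

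Cd163 encodes the haemoglobin-haptoglobin scavenger receptor (chromosome 6, 124304656 to 124330527). Its 61 reads all came from KO replicate 1 (1.93 CPM, 95% exact Poisson interval 1.47 to 2.48). The other 4 libraries had none, which allows up to 0.052 to 0.123 CPM by the limit of 3 counts. Detection in 1 library gives no comparison between the groups. Of 10 scavenger receptor genes tested, Mrc1 and Cd68 included, 0 were called by edgeR and 9 were positive, against 49.4% of all genes tested, with a median of 0.79. Over the list genes passing the filter without WT replicate 2, which can differ from these 10, the median was 1.53. Among cell type markers tested, 7 of 8 of valve endothelium, 8 of 9 of interstitial cells and 3 of 7 of mast cells were positive. The part of such cells in this list was not tested. Mrc2, the paralog of Mrc1 found on fibroblasts, had 1.37 and 1.89 CPM for WT, against 15.8, 16.9 and 5.53 for KO (log2 fold change 2.96, SE 0.91, edgeR adjusted p = 0.81, DESeq2 adjusted p = 0.0429). Colec12, a collectin scavenger receptor, had a log2 fold change of 1.52 (SE 0.66, edgeR adjusted p = 0.81).

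Mertk encodes a receptor tyrosine kinase that recognises dying cells through Gas6 and protein S (chromosome 2, 128698956 to 128802894). It had 3.5 and 4.71 CPM for WT, against 3.98, 14.1 and 14.4 for KO. KO replicates 2 and 3 were about equally high, and KO replicate 1 lay between the WT libraries. The log2 fold change was 1.40 (SE 0.89, edgeR adjusted p = 0.86), and it ranged from 1.14 to 1.76 with single libraries left out. Its paralogs Axl and Tyro3 did not pass either, at log2 fold changes of 0.41 (Axl, SE 0.59) and 1.01 (Tyro3, SE 0.68). Both had overlapping groups, with KO replicate 3 highest at 257 and 34.8 CPM. The ligand gene Gas6 lay between 180 and 357 CPM in all libraries, with WT replicates at the extremes. Of 12 genes of apoptotic cell uptake tested, 10 were positive, against 49.4% of all genes tested, and 0 were called, with a median of 0.68. Over the list genes passing the filter without WT replicate 2, which can differ from these 12, the median was 1.53. Cd36 and Stab1 are also in the scavenger receptor list. Megf10, an engulfment receptor, had 0.0381 and 0.711 CPM for WT, against 11.0, 8.82 and 0 for KO, with KO replicate 3 at 0 (log2 fold change 4.11, SE 2.68, edgeR adjusted p = 0.866).

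The receptors for bacterial lipid and antibody followed other libraries. Cd14 encodes the co-receptor that hands lipopolysaccharide to Toll-like receptor 4 (chromosome 18, 36725067 to 36726798). Its levels were 1.94 and 5.49 CPM for WT, against 9.64, 7.9 and 1.64 for KO. KO replicates 1 and 2 were highest, while KO replicate 3, the highest library for Csf1r and Cd68, was the lowest of all 5. The log2 fold change was 0.78 (SE 1.15, edgeR adjusted p = 0.956), and leaving out WT replicate 1 or KO replicate 1 gave 0.19 or 0.31. Leaving out WT replicate 2 or KO replicate 3 gave 1.72 or 1.24. Among libraries sharing a title code it was 2.17.

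Neutrophils also express Cd14, and their markers were lowest in KO replicate 3 as well. The sum of 9 neutrophil markers was 20.9 and 7.28 CPM for WT, against 39.5, 22.3 and 0.123 for KO, with Mpo and Elane at 0 throughout. Its part in the Cd14 values was not tested. In the Toll-like receptor 4 list, 0 of 11 tested genes were called and 4 were positive (median -0.09). Irak4, a kinase below the receptor, had 3.27 and 15.4 CPM for WT, against 1.82 to 2.97 for KO, and the adaptor Myd88 had 35.0 and 50.4 against 20.6 to 32.1. Both were lower in every KO library, without passing (log2 fold changes -1.96, SE 1.03, and -0.78, SE 0.43, edgeR adjusted p = 0.822 and 0.831). The list's median ran from -0.67 without WT replicate 1 to 0.51 without WT replicate 2.

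Fcgr3 encodes the low-affinity IgG receptor CD16 (chromosome 1, 171051174 to 171064935). It had 17.1 and 91.7 CPM for WT, against 45.9, 31.4 and 35.4 for KO. The WT libraries were the lowest and the highest of all 5, and the KO libraries fell between them. WT averaged 54.4 ± 52.7 (SD, n = 2) and KO 37.6 ± 7.46 (SD, n = 3), with a log2 fold change of -0.54 (SE 0.70, edgeR adjusted p = 0.942). Its direction turned with the WT library kept, to 1.13 without WT replicate 2 and -1.32 without WT replicate 1, and it was 1.17 among libraries sharing a title code. Taking out the length trend gave -0.19. Of all tested genes with reads in both WT libraries, 16.5% differed at least as much between them.

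Mast cells also carry Fcgr3. The sum of 8 mast cell markers was 30.7 and 237.1 CPM for WT, against 85.5 to 119 for KO, and its part in the Fcgr3 values was not tested. Of the 8 markers, 2 (Cma1 and Tpsb2) were by themselves lowest in WT replicate 1 and highest in WT replicate 2. The related receptor genes were sparse. Fcgr2b, which encodes the inhibitory receptor and shares windows with Fcgr3, had 0.0381 and 7.12 CPM for WT, against 3.85, 2.24 and 0.0819 for KO. Fcgr4 had no read in KO replicate 2 and 1.9 to 4.99 CPM elsewhere. Fcer1g, the signalling chain of these receptors, had 7.23 and 48.9 CPM for WT, against 17.8 to 30.0 for KO, again with the WT libraries at the extremes. Of 9 genes tested in this list 4 were positive and 0 were called, with a median of -0.07. It ran from -0.53 without WT replicate 1 to 0.74 without WT replicate 2 and was 0.15 once the length trend was taken out. Syk, the kinase recruited by Fcer1g, had no read in WT replicate 2 or KO replicate 3 and 8.07 to 12.9 CPM elsewhere.

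Lyz2 encodes lysozyme M, a secreted enzyme that cuts bacterial cell walls (chromosome 10, 117277331 to 117282321). Its level was 135 and 118 CPM for WT, against 103, 64.1 and 86.2 for KO, so every KO library lay below both WT libraries. WT averaged 126.5 ± 11.8 (SD, n = 2) and KO 84.5 ± 19.6 (SD, n = 3), and the fitted log2 difference was -0.58 (SE 0.34, edgeR adjusted p = 0.842), -0.41 to -0.78 with single libraries left out, and -0.16 with the length trend removed. Lyz1, whose reads overlap in part, had 15.7 and 8.42 CPM for WT, against 10.2, 5.05 and 6.51 for KO, with overlapping groups (log2 fold change -0.73, SE 0.72, edgeR adjusted p = 0.921).

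**Figure D3:**
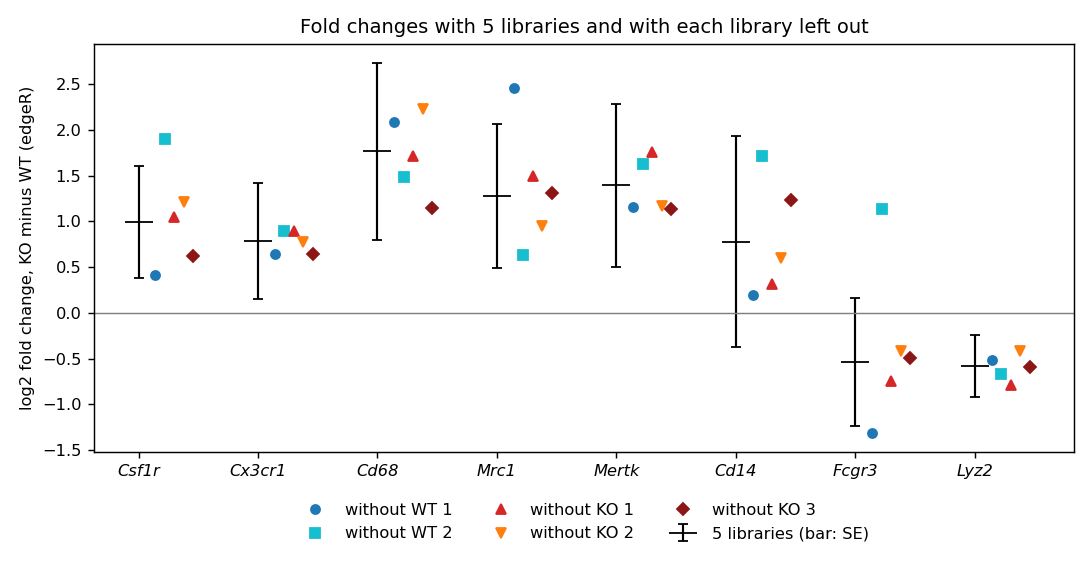
Log2 fold change of KO against WT for 8 members from the edgeR fit. Black lines are the values with 5 libraries and bars their SE, and coloured symbols are the fits with 1 library left out. Itgam, with no read in WT, and Cd163, not tested, are not drawn. Fcgr3 is the member that crosses 0, at 1.13 without WT replicate 2 and -1.32 without WT replicate 1.

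Compared per kilobase of the longest transcript, Lyz2 was the most abundant member in all 5 libraries, at 48.7 to 102.4 CPM per kilobase. Fcgr3 was second in all 5, at 12.7 to 68.1. Cd68 (2.69 to 19.8) and Csf1r (2.57 to 13.9) came next. Their ranges overlapped, and Cd68 exceeded Csf1r in 3 of 5 libraries. Dividing by the mean length of each gene's transcripts instead put Csf1r above Cd68 in all 5 libraries and left Fcgr3 second in 4 of 5, with Csf1r above it in KO replicate 3. Cd14, Mrc1, Cx3cr1 and Mertk had overlapping ranges between 0.632 and 5.87 CPM per kilobase, and Cd14 exceeded Mrc1 in 2 of 5 libraries. Cd163 (0 to 0.434) was lowest on average and Itgam (0 to 1.61) next, although Itgam exceeded Cd14 in 1 library, KO replicate 3.

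The sum of the 10 members was nearly level, at 193.8 and 267.9 CPM for WT, against 245.3, 191.5 and 268.7 for KO, with the log2 ratio of group means at 0.03. Within this sum the makeup differed between libraries. Lyz2 made up 69.6 and 44.1% of it in WT and 42.1, 33.5 and 32.1% in KO. Without Lyz2 the sum was 59.0 and 149.7 CPM for WT, against 142.1, 127.4 and 182.5 for KO, and without Lyz2 and Fcgr3 it was 41.9 and 58.0 against 96.2, 96.0 and 147. Divided by the pan-leukocyte sum, the sum of all 10 was 2.926 and 1.741 in WT and 1.594, 2.003 and 2.445 in KO. The same ratio without Lyz2 was 0.891 and 0.973 in WT and 0.923, 1.33 and 1.66 in KO. The groups overlapped in both. Lyz2 and Fcgr3 are the members whose fold changes were negative, so leaving them out could only raise KO relative to WT. These groupings were chosen after the values were seen, and no test was made of them.

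Of 15 broader macrophage genes outside the members, 4 were positive and 11 negative, 0 were called, and the median was -0.29. It ran from -0.93 without WT replicate 1 to 1.195 without WT replicate 2, was 0.09 without KO replicate 2 and 0.04 once the length trend was taken out. C1qa, C1qb and C1qc, which encode the chains of complement C1q made by resident macrophages, were lowest in WT replicate 1 (C1qb and C1qc) or KO replicate 2 (C1qa). All 3 were highest in WT replicate 2, at 56.7, 93.2 and 73.5 CPM. Cd84, a leukocyte adhesion receptor, had 9.48 and 20.1 CPM for WT, against 4.9, 2.5 and 3.52 for KO, below both WT libraries (log2 fold change -2.02, SE 0.77, edgeR adjusted p = 0.81). Mpeg1, which encodes perforin-2, had 0.304 and 0 CPM for WT, against 8.66, 2.1 and 1.43 for KO (log2 fold change 4.76, SE 2.47, edgeR adjusted p = 0.817).

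Genes of resident macrophages and of recruited monocytes were sparse. Of 13 resident genes 7 were tested, 4 of them positive and 0 called (median 0.16). Lyve1, a hyaluronan receptor of resident macrophages and lymphatic vessels, had 0 and 8.23 CPM for WT, against 12.3, 34.7 and 14.3 for KO (log2 fold change 2.30, SE 1.88, edgeR adjusted p = 0.894). Pf4, shared with platelets, had 15.7 and 117 CPM for WT, against 14.9 to 40.7 for KO, beside a platelet marker sum, Pf4 included, of 24.1 and 237.1 against 26.8 to 77.8. Of 11 monocyte genes 8 were tested, 4 positive and 0 called (median -0.02). Ccr2, the receptor that draws monocytes into tissue, had 4.11 and 0 CPM for WT, against 7.93, 4.69 and 0.0819 for KO. Plac8 had 0 and 0.156 CPM for WT, against 1.23 to 1.56 for KO (log2 fold change 4.03, SE 2.40, edgeR adjusted p = 0.847). S100a4, a calcium-binding protein, had 3.31 CPM in WT replicate 1 and 101 in WT replicate 2, with KO between 7.81 and 24.3. Over the resident genes passing the filter in each refit, the median ran from -0.06 without WT replicate 1 to 4.14 without WT replicate 2. These genes can differ from the 7 tested in the main fit. Genes with no read in WT replicate 1, such as Lyve1, could only come out positive without WT replicate 2. Over the monocyte genes passing in each refit, which can differ from the 8 tested in the main fit, the median ran from -0.63 to 3.09. The lower value was without KO replicate 1 and the higher without WT replicate 1. Genes with no read in WT replicate 2, such as Ccr2, could only come out positive without WT replicate 1. The monocyte median was 0.29 once the length trend was taken out.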

How the data were processed

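Total RNA of mitral leaflets was extracted on RNeasy columns with DNase treatment, then amplified with SMART-Seq v4, a kit that does not mark the strand, per the labels' protocols. The submitters' processing notes name GRCm38 (mm10), cutadapt 1.11, FastQC 0.11.5, DESeq2 and HTSeq. The sources used here name no aligner or annotation. The table deposited by the authors holds raw counts per gene and library, and per the file headers the authors' comparison of KO with WT: a mean signal of normalized counts, log2 fold changes with standard errors, a test score and p-values with their adjusted form.

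Groups follow the titles, and replicates are numbered in accession order. Counts of the 14244 genes passing filterByExpr, of 17148 with a read, were fitted with edgeR 4.0.16 in R 4.3.3 (TMM, robust quasi-likelihood F test, two-sided), and calls needed an adjusted p (Benjamini-Hochberg) under 0.05. The SE of a log2 fold change is its size divided by the square root of F. Alternatives used limma 3.58.1, DESeq2 1.42.0, other scalings and filters, single libraries left out, the 3 libraries sharing a title code, and removal of each library's lowess trend with transcript length. Each fit with libraries left out applied the filter anew. The median of a list there covers the list genes passing in that fit, which can differ from the main fit. The fitting script was tested on simulated data. Transcript lengths came from GENCODE M21, matched by symbol for 22750 genes and by older symbol for 933. Named genes were all members, their paralogs, Ift88, Ptprc, the 2 tested genes with the smallest p of each list, and the 5 genes nearest to Csf1r, and other genes were named after their values were seen. A gene that this rule names is not reported here. Members and lists were chosen with earlier results of these data known. Poisson intervals at 95% and the limit of 3 counts cover counting error only, since amplified reads are not independent molecules.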

Additional observations from a re-analysis of the deposited data

How the results depend on the processing

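No member was called with edgeR or limma-voom under any alternative. DESeq2 called 1 member (Itgam), 2 genes of the pathway lists (Itgam and Mrc2) and 219 genes in all, and the quasi-likelihood test without WT replicate 1 called 245 genes, 0 of them members or list genes. Leaving out single libraries thus gave 0 to 245 calls over all genes and 0 among the members. Of 114 member fold changes under alternatives, 111 kept their direction and side of the threshold, 1 passed it (Itgam with DESeq2), and 2 turned: Fcgr3, at -1.32 to 1.13 with single libraries left out (1.13 without WT replicate 2) and 1.17 among libraries sharing a title code. The log2 ratio of the members' summed level ranged from -0.22 without WT replicate 1 to 0.28 without WT replicate 2. Under library totals the median fold change of all genes was 0.10 and under DESeq2-type size factors -0.08, against -0.01 with TMM, and no member changed direction. Lyz2 ranked first per kilobase in 5 of 5 libraries by longest and by mean transcript length. Leaving Itgam out of the median, and single libraries out of its bound, was chosen after seeing the data. Fits without a WT library, or among libraries sharing a title code, hold 1 WT library, which is assumed to vary like KO. No paired analysis was made because the titles state no pairing of WT with KO libraries. Where Itgam and Cd163 had no read, depth sets the limit given. The cause of each of these changes was not tested.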

Other observations

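Several macrophage genes had many reads in 1 library and none in the other 4. Vsig4, which encodes a complement receptor of resident macrophages, had 430 reads in WT replicate 2 only. Chil3, a chitinase-like protein of activated macrophages, had 222 reads in KO replicate 2 only. Timd4, a receptor for phosphatidylserine on dying cells, had 57 in KO replicate 3 only, and Cd163 had its 61 in KO replicate 1. Among all 17148 genes with a read, 314 had at least 50 reads in 1 library and none in the others, 99 of them in WT replicate 2 and 104 in KO replicate 2. Of the 98 listed genes with at least 100 reads in some library, 16.3% had none in another, against 13.96% of the 13269 such genes in the table. These counts were chosen after the values were seen.

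The genes whose levels over the 5 libraries were most like those of Csf1r were not macrophage genes. By root mean square distance of centred log2 CPM, the nearest of 13706 genes were Pelp1 (0.122), Ift80 (0.145), Rmdn3 (0.158), Tmem45a (0.161) and Mtor (0.162). Among the members Cx3cr1 was nearest to Csf1r, at rank 642 (0.521), followed by Fcgr3 at rank 2694 (0.759) and Mertk at 2842 (0.771). Itgam was farthest, at rank 12575 (3.44). With 5 libraries this is a description of likeness and not a measure of shared control.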
